A study of Homo sapiens with 2 samples.

Results

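A group of 10 chemokine genes that epithelial tumour cells are known to transcribe was examined in FaDu cells: CXCL1, CXCL2, CXCL3, CXCL5, CXCL8, CXCL10, CXCL11, CXCL16, CCL20 and CCL5. They were chosen by gene symbol, and each of the 10 matched 1 transcript cluster, the array's gene-level unit, out of 22465 named genes. The cetuximab-resistant group was 1 array of RNA from a line that the labels call cetuximab resistant (cetuximab is a therapeutic antibody against the EGF receptor). The parental group was 1 array of RNA from the parental line. FaDu is an established human line of head and neck squamous carcinoma, and both cultures are labelled as FaDu. The labels do not say how resistance was obtained, whether the resistant line is a clone, or whether the antibody was in the medium at harvest. The comparison asks which chemokine transcripts differ between the resistant line and the parental line.

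Chemokines are small secreted proteins that guide leukocytes through G protein-coupled receptors. CXCL1, CXCL2, CXCL3, CXCL5 and CXCL8 act on CXCR2 (CXCL8 also on CXCR1) and draw neutrophils. CXCL10 and CXCL11 are interferon-induced ligands of CXCR3, which is carried by activated T cells. CCL20 binds CCR6, and CCL5 draws T cells and monocytes. CXCL16 is made as a membrane-bound protein that binds CXCR6 and can be shed. In squamous carcinoma cells the CXCR2 ligands are known targets of NF-kB and AP-1 downstream of interleukin 1 and growth factor signalling.

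CXCL8 and CXCL1 were lower in the resistant line, and CXCL16 was higher. CXCL2 was also counted as lower, a call that was lost after centring, loess, quantile normalisation or raising values to background. The other 6 chemokine genes did not reach the criterion for a difference, and 5 of them lay at or below the background level on both arrays. The values are deposited log2 expression values, and every difference is the resistant value minus the parental value. A gene was counted as different when the higher of its values was above 5.98 (the brightness level, set at the median of such higher values across named genes) and when the arrays differed by at least 2-fold. By this rule 3 of the 10 chemokines were lower, against 7.02% of all named genes, and 1 was higher, against 7.98%. After centring, loess, quantile normalisation or raising values to background, 2 chemokines were lower. The lower named genes then numbered between 1317 and 1564, against 1578 of 22465 by the main rule. Among the 11224 genes above 5.98, the shares were 14.1% lower and 16.0% higher. Only 4 of the 10 chemokines were above 5.98. The 3 lower genes were above it on the parental array alone, so they passed the filter through the array on which they were high, and their number is a description.

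Each group was a single array, so no replicate spread or test could be had, and a difference cannot be assigned to resistance, culture, passage or array. In bulk RNA, fewer cells making a transcript and less transcript per cell cannot be told apart. The background level was set at percentile 95 of 358 genes of olfactory receptors, mostly silent in epithelial cells. It was 5.06 on the resistant array and 5.09 on the parental array. The same genes differed between arrays with an SD of 0.42 log2 units across genes, a figure for dim clusters that does not stand in for replicates. Of all named genes, 60.7% were above background on at least 1 array, and the median difference of all named genes was -0.01.

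Both arrays carried the epithelial markers measured, though KRT14 was close to background on the resistant array. All 7 measured markers of squamous epithelium were above background on both arrays, but 3 of them were lower and 1 higher by 2-fold or more in the resistant line, and their median difference was -0.71. Of all named genes above the brightness level, 14.1% were lower and 16.0% higher. The basal keratin genes KRT14 and KRT5 were lower, KRT14 at 5.17 on the resistant and 11.39 on the parental array and KRT5 at 13.75 on the resistant and 17.25 on the parental array. The desmosome gene DSP was at 12.31 on the resistant and 15.31 on the parental array, and the epithelial adhesion gene EPCAM was higher, at 13.98 on the resistant and 12.61 on the parental array. Of 11 leukocyte markers, 9 were at or below background on both arrays, PTPRC, which encodes CD45, at 3.98 in the resistant and 3.92 in the parental line. The log2 of their summed signal was 10.05 on the resistant and 11.31 on the parental array, most of it CD68, a lysosomal protein gene, at 9.71 on the resistant and 11.19 on the parental array. For 7 fibroblast markers the log2 of the summed signal was 7.17 on the resistant and 7.14 on the parental array, with 6 at or below background on both. Their single values ran between 3.47 and 5.26 on the resistant and between 3.70 and 5.22 on the parental array. A sum over dim genes exceeds each of them, so it cannot be read against the background level. For 6 endothelial markers the log2 of the summed signal was 7.96 on the resistant and 7.44 on the parental array, with 3 at or below background on both. The highest endothelial marker was the cadherin gene CDH5, at 6.98 on the resistant and 6.14 on the parental array. The part of these marker levels in the chemokine differences was not tested.

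The promoters of the 3 lower genes and of CXCL3 are shown because those of CXCL1, CXCL2 and CXCL3 are similar in sequence, whereas CXCL3, unlike CXCL1 and CXCL2, lay below background on both arrays. Sequences are RefSeq promoters of the assembly GRCh38.p14, the 250 bases before the gene start, 5′ to 3′ on the strand of the gene. CXCL8 lies at chr4:73740319-73740568 and CXCL1 at chr4:73869143-73869392, both on the plus strand. CXCL2 lies at chr4:74099196-74099445 and CXCL3 at chr4:74038690-74038939, both on the minus strand. Capitals mark matches to the NF-kB consensus or its core GGAATTTCC and, in CXCL8, to the AP-1 element TGANTCA.
CXCL8: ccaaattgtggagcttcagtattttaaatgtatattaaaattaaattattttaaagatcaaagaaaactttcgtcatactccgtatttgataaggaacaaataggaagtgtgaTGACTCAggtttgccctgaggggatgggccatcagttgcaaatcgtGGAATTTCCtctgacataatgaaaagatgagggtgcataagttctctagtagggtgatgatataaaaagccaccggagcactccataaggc
CXCL1: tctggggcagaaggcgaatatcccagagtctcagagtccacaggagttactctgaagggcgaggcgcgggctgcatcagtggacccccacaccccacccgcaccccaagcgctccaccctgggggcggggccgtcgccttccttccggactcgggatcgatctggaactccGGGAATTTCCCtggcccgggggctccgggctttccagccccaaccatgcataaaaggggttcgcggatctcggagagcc
CXCL2: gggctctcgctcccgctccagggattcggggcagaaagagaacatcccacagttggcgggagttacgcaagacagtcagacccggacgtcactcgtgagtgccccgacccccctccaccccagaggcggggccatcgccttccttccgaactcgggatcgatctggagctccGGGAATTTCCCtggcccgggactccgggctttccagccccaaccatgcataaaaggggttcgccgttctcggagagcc
CXCL3: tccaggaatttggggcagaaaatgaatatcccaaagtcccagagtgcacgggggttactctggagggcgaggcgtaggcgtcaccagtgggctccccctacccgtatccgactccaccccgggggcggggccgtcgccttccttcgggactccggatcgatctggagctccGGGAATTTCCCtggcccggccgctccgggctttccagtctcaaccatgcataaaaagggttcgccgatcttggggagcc

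RefSeq promoters were matched for 8 of the 10 chemokines, all except CXCL16 and CCL5. On either strand the core GGAATTTCC was present in 7 of these 8 promoters, CCL20 being the exception, and in 0.43% of 27305 promoters. It began 78 bases before the start in CXCL1 and CXCL3, 77 in CXCL2 and 91 in CXCL8. The CXCR2 ligands are known NF-kB targets, and CXCL1, CXCL2 and CXCL3 have similar promoters, so the count of 7 is no test of enrichment. The longer NF-kB consensus, which overlaps the core in CXCL1, CXCL2, CXCL3, CXCL5, CXCL10 and CXCL11, matched 7 of 8 promoters, all except CXCL8, and 9.57% of all promoters. The AP-1 element TGANTCA was found in CXCL8 and CXCL11 and in 6.60% of all promoters. The interferon response element, searched as GAAA repeated after any pair of bases, was found in CXCL10 alone among the 8, and in 3.07% of all promoters. The windows of CXCL1 and CXCL3 were identical at 81.4% of aligned positions, those of CXCL2 and CXCL3 at 73.3% and those of CXCL1 and CXCL2 at 70.4%. CXCL1 and CXCL8 were identical at 42.6%. These matches describe letters in a window and show neither binding nor use of a site.

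**Figure D1:**
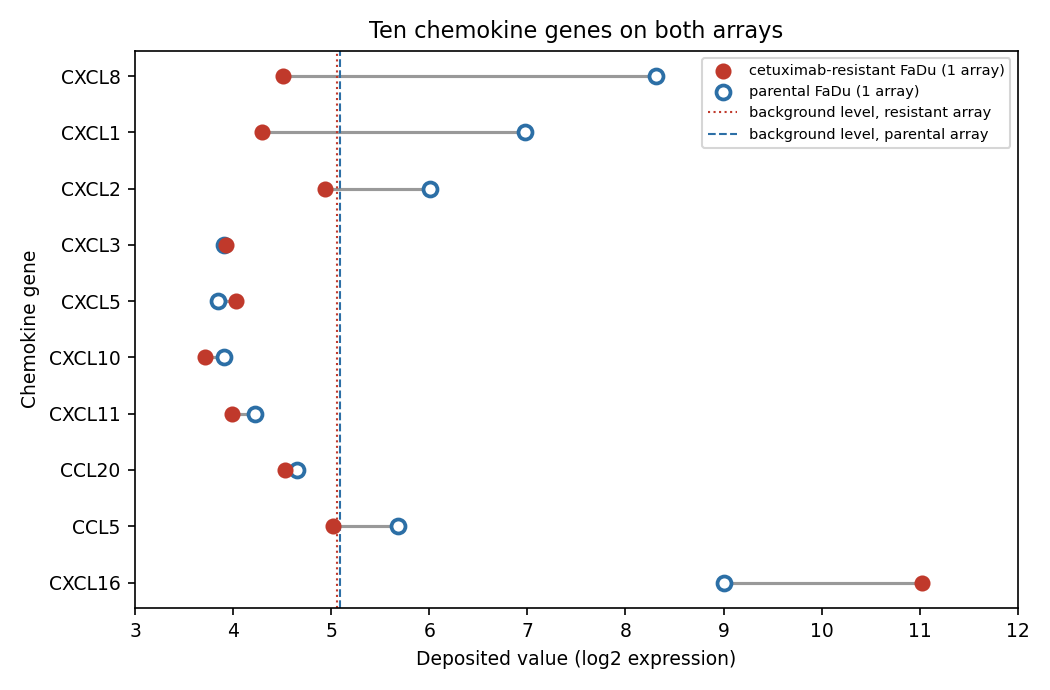
Deposited log2 values (horizontal axis) of the 10 chemokine genes (rows) on the cetuximab-resistant array (filled points) and the parental array (open points), 1 array each, with vertical lines at the background levels of 5.06 (resistant) and 5.09 (parental). CXCL8, CXCL1 and CXCL2 lie below background on the resistant array and above it on the parental array, CXCL16 is bright on both, and 5 genes lie below background on both.

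CXCL8, known as interleukin 8, and CXCL1, known as GRO-alpha, were the neutrophil-attracting CXCR2 ligands whose lower level held under every scaling tried. CXCL8 was at 4.51 in the resistant line and at 8.31 in the parental line. The resistant value lay below background, so the difference of -3.80 stands for a level at least 9.48-fold lower in the resistant line. CXCL1 was at 4.29 in the resistant line and at 6.98 in the parental line. Its difference was -2.69, a level at least 3.77-fold lower in the resistant line. As both folds are bounds, they do not show which of these genes differed more.

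CXCL2, known as GRO-beta, was at 4.94 in the resistant line and at 6.01 in the parental line. Its difference was -1.07. The parental value lay just above the brightness level of 5.98, and the resistant value just below background. Measured from the background level the difference was -0.95, at least 1.93-fold, which is short of the 2-fold criterion. The difference was also short of 2-fold after loess (-0.97) and quantile normalisation (-0.98), and after centring the gene no longer lay above the brightness level. The call for CXCL2 therefore depends on the scaling and on a value below background.

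CXCL3, known as GRO-gamma, was at 3.93 in the resistant line and at 3.91 in the parental line. CXCL5, known as ENA-78, was at 4.03 in the resistant line and at 3.85 in the parental line. Both genes lay below background on both arrays, and no fold is given for them. CXCL1, CXCL2 and CXCL3 are closely related genes whose clusters may share signal through similar probes, which was not tested, so their single values are uncertain. Of the 5 CXCR2 ligands, 0 were above background on the resistant array and 3 on the parental array. Of all 22465 named genes, 12946 were above background on the resistant array and 12907 on the parental array.

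**Figure D2:**
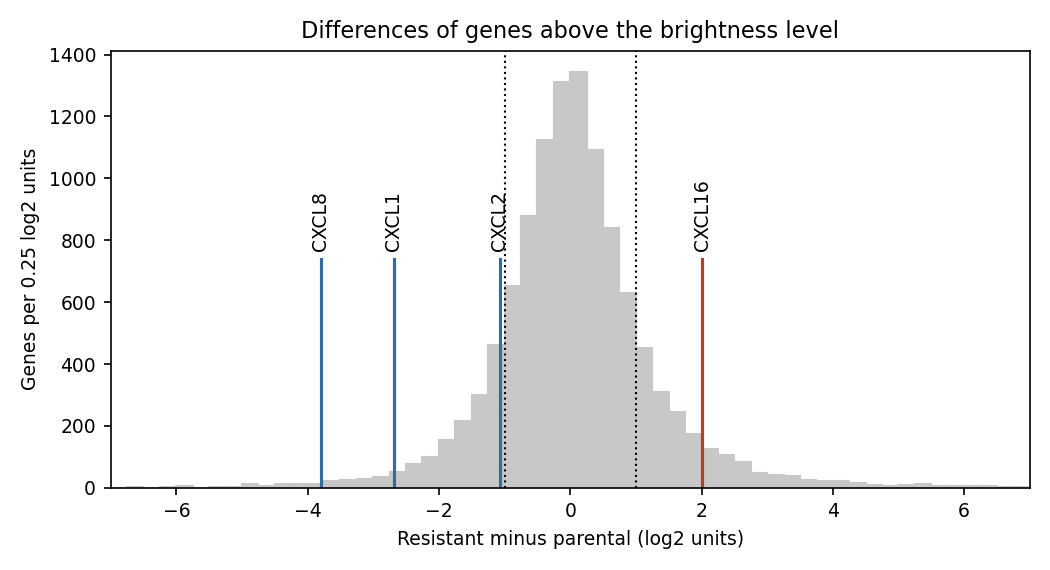
Number of genes (vertical axis) by difference, resistant minus parental in log2 units (horizontal axis), for the 11224 genes above the brightness level, with dotted lines at 2-fold. The 4 chemokines above that level are marked: CXCL8 at -3.80, CXCL1 at -2.69, CXCL2 at -1.07 and CXCL16 at 2.01.

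The CXCR3 ligands lay below background in both lines. CXCL10, known as IP-10, was at 3.71 in the resistant line and at 3.91 in the parental line. CXCL11, known as I-TAC, was at 3.99 in the resistant line and at 4.22 in the parental line. Both lay below background on both arrays, so a difference was not detectable. CXCL9, the remaining interferon-induced CXCR3 ligand, was also below background, at 3.35 in the resistant line and 3.59 in the parental line.

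CXCL16 was the only chemokine of the 10 that was above background on the resistant array. It was at 11.02 in the resistant line and at 9.01 in the parental line, a difference of 2.01, or 4.03-fold higher, measured well above background on both arrays. Of all named genes, 606 including CXCL16 had a difference as high or higher. CCL5, known as RANTES, was at 5.02 in the resistant line and at 5.68 in the parental line. Its resistant value lay just below background and its difference of -0.66 (-0.62 from the background level) was under 2-fold. CCL20, which draws CCR6-bearing dendritic cells and lymphocytes, was at 4.53 in the resistant line and 4.65 in the parental line, below background on both arrays.

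The 5 CXCR2 ligands, CXCL10 and CXCL11 lie on chromosome 4, CXCL16 and CCL5 on chromosome 17, and CCL20 on chromosome 2. On chromosome 4, 10 measured genes span CXCL8 to CXCL2. Of these 10, CXCL8, CXCL1 and CXCL2 were above the brightness level, on the parental array alone, and were counted as lower, CXCL2 not under every scaling. Only a gene above that level could be counted. Of all 22465 named genes, 11224 were above it and 7.02% were lower. The other 7, which besides CXCL3 and CXCL5 include the platelet chemokine genes PF4 and PPBP, lay below background on both arrays, PF4 at 4.96 in the resistant and 4.90 in the parental line. A further 13 measured genes separate CXCL2 from the group that holds CXCL9, CXCL10 and CXCL11. None of the 3 chemokines of that group was above background, whereas the adjacent gene SDAD1 was at 11.22 in the resistant and 11.49 in the parental line. The adjacent genes were looked at after the values were seen.

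**Figure D3:**
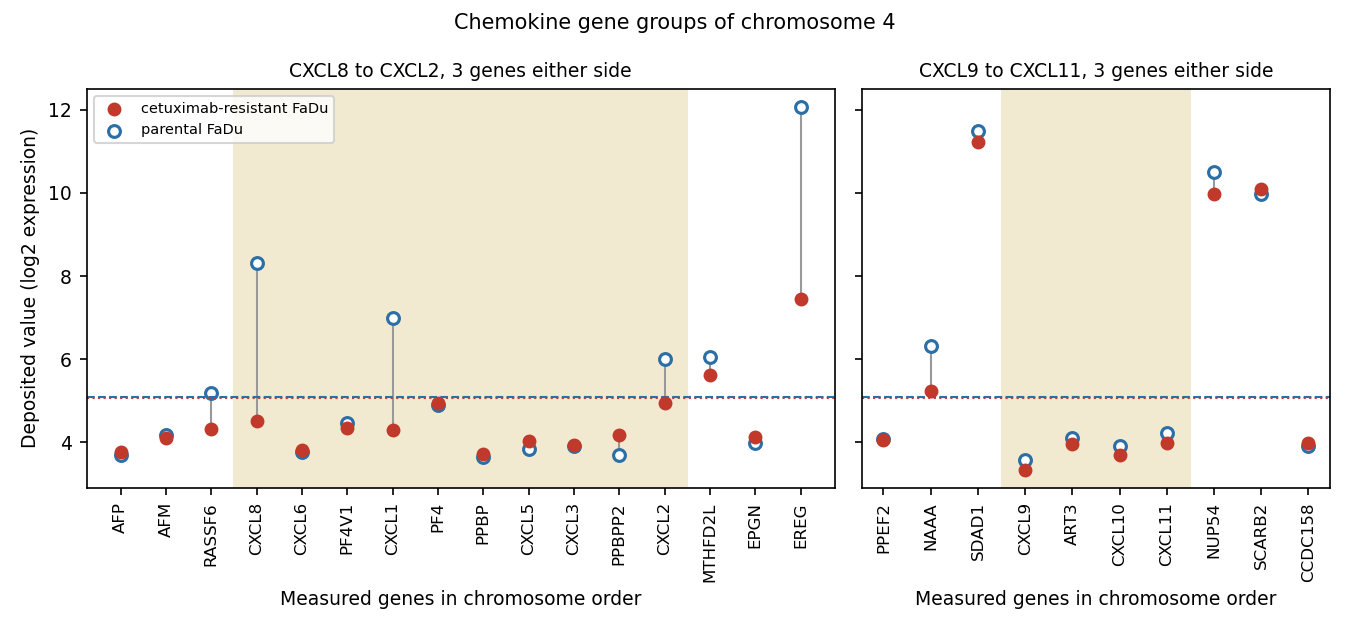
Deposited log2 values (vertical axis) of measured genes in chromosome order (horizontal axis) around the chromosome 4 chemokine genes, on the cetuximab-resistant array (filled points) and the parental array (open points), 1 array each. Shading marks the span from CXCL8 to CXCL2 (left) and from CXCL9 to CXCL11 (right), and horizontal lines the background levels. Inside the left span CXCL8, CXCL1 and CXCL2 are above background, on the parental array alone, and EREG on its right flank is at 7.45 on the resistant and 12.06 on the parental array.

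Other chemokine ligands were almost all undetected. Of 34 listed, 31 were measured, 30 of these lay at or below background on both arrays, and 0 were above the brightness level. Their median difference was 0.00, against -0.21 for the 10 chemokines and -0.01 for all named genes. The -0.21 lies between the differences of CXCL10 and CXCL11, both below background on both arrays, so it shows no shift of the group. Resistant values of the other ligands ran between 3.35 and 4.96, and their parental values between 3.59 and 5.31. The highest of them was XCL2, at 4.33 in the resistant and 5.31 in the parental line. XCL1, named after the values were seen, was at 3.35 in the resistant and 4.84 in the parental line. Its difference of -1.49 lay between values below background. Without a brightness filter, 1 of the other ligands was lower. The 10 chemokines thus held all 4 of the chemokine ligand genes above the brightness level.

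Receptors for these chemokines were also dim. Of 21 measured chemokine receptor genes, 17 lay at or below background on both arrays, and the median difference was 0.00. CXCR2, the receptor of the neutrophil ligands, was at 4.33 in the resistant and 4.98 in the parental line. CXCR6, the receptor of CXCL16, was at 3.85 in the resistant and 3.71 in the parental line, and CXCR3 at 5.04 in the resistant and 4.81 in the parental line. All 3 were below background in both lines. Both receptors above the brightness level were atypical receptors, which bind chemokines without G protein signalling. ACKR2, a scavenger of inflammatory CC chemokines, was at 7.15 in the resistant and 5.47 in the parental line, 3.20-fold higher, and it was the 1 receptor past 2-fold. ACKR3, which binds CXCL11 and CXCL12, was at 6.42 in the resistant and 6.58 in the parental line.

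Genes of the inflammatory inputs to CXCR2 ligands differed in both directions. Of 20 measured genes of interleukin 1, TNF, interleukin 17 and Toll-like receptor signalling, 5 were lower and 2 higher by 2-fold or more, with a median difference of -0.37 (-0.15 with values raised to background). Of the 20, 13 were above the brightness level. Of all named genes above it, 14.1% were lower and 16.0% higher. IL1B, the gene of interleukin 1 beta, was at 5.13 in the resistant and 10.39 in the parental line, 38.3-fold lower on a resistant value close to background. IL1A, the gene of interleukin 1 alpha, was at 4.91 in the resistant and 9.48 in the parental line, at least 21.3-fold lower. IL1RAP, the co-receptor that interleukin 1 signalling needs, was at 5.86 in the resistant and 8.29 in the parental line, 5.39-fold lower. TLR4, the receptor for bacterial lipopolysaccharide, was at 6.41 in the resistant and 4.05 in the parental line, at least 2.49-fold higher. IL1R1, the interleukin 1 receptor, was also higher, at 6.55 in the resistant and 4.91 in the parental line, at least 2.75-fold. IL1RN, which encodes the interleukin 1 receptor antagonist, was lower, at 5.61 in the resistant and 7.32 in the parental line, 3.27-fold. IL1A, IL1B, IL1RAP and IL1RN were above the brightness level on the parental array alone, and IL1R1 on the resistant array alone. Each thus passed the filter through the array on which it was high. IL18, of the same family, was under 2-fold, at 10.67 in the resistant and 11.13 in the parental line. IL36G and IL36RN were below background on both arrays. IL18, IL36G and IL36RN were named after the values were seen.

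The NF-kB list held 18 measured genes, all above background on both arrays, of which 7 were lower and 3 higher by 2-fold or more, with a median difference of 0.08. The number of lower genes in the list was 5 after centring or loess. Of all named genes, 1430 were then lower after centring and 1317 after loess, against 1578 by the main rule. Of the 18, 16 were above the brightness level. Of all named genes above it, 14.1% were lower and 16.0% higher. TNFAIP3, which encodes the feedback inhibitor A20, was at 13.13 in the resistant and 9.20 in the parental line, 15.2-fold higher. TNIP1, whose product binds A20, was at 10.32 in the resistant and 8.11 in the parental line, 4.63-fold higher. IKBKB, the gene of the kinase that marks the NF-kB inhibitor for degradation, was at 7.10 in the resistant and 9.91 in the parental line, 7.01-fold lower. NFKBIZ, a nuclear cofactor of NF-kB that is needed for some of its target genes, was at 6.72 in the resistant and 9.27 in the parental line, 5.86-fold lower. RELA, the p65 subunit, was at 10.98 in the resistant and 12.32 in the parental line, and NFKBIA, the inhibitor itself, at 9.06 in the resistant and 11.03 in the parental line. RELA, NFKBIA, IL1R1 and IL1RN were picked for their roles after the values were seen, as were PTPRC, CXCR2, CXCR3, CXCR6, CXCL9, XCL2 and PF4 above and IRF3, JAK1, TYK2 and IFNB1 below.

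In the interferon axis, which induces CXCL10 and CXCL11, differences went both ways. Of 17 measured genes, 5 were lower and 1 higher by 2-fold or more, and the median difference was -0.32 (-0.16 with values raised to background). Of the 17, 10 were above the brightness level. Of all named genes above it, 14.1% were lower and 16.0% higher. GBP1, an interferon-gamma-induced GTPase, was at 6.50 in the resistant and 8.96 in the parental line, 5.50-fold lower. JAK2, a kinase of the interferon-gamma receptor, was at 6.70 in the resistant and 8.99 in the parental line, 4.89-fold lower. IFNAR1, a subunit of the type I interferon receptor, was at 11.00 in the resistant and 13.11 in the parental line, 4.32-fold lower, and the transcription factor gene IRF1 at 5.47 in the resistant and 7.12 in the parental line, 3.14-fold lower. IRF3, another transcription factor gene, was higher, at 8.10 in the resistant and 7.08 in the parental line, 2.03-fold. The kinase genes JAK1 and TYK2 were under 2-fold, with differences of -0.16 and -0.10. IFNB1, the gene of interferon beta, was below background on both arrays, at 3.46 in the resistant and 3.43 in the parental line.

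Chemokine mRNAs are known to carry AU-rich elements that set their stability, and 9 genes of that machinery were measured. Of these, 3 were lower and 2 higher by 2-fold or more, with a median difference of -0.23. All 9 were above the brightness level. Of all named genes above it, 14.1% were lower and 16.0% higher. ZFP36, which encodes tristetraprolin, a protein that promotes decay of such mRNAs, was at 8.95 in the resistant and 13.87 in the parental line, 30.3-fold lower. Its relatives ZFP36L2 and ZFP36L1 were higher, ZFP36L2 at 11.20 in the resistant and 8.53 in the parental line (6.36-fold) and ZFP36L1 at 11.93 in the resistant and 10.42 in the parental line (2.85-fold). A second, dim cluster of ZFP36L1 was at 4.95 in the resistant and 5.50 in the parental line, and with both clusters averaged ZFP36L1 was under 2-fold, at 0.48. TIA1, which encodes a translational silencer, was at 8.65 in the resistant and 10.80 in the parental line, 4.44-fold lower.

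Proteases that shed or trim chemokines went both ways. Of 12 measured genes, 4 were lower and 2 higher by 2-fold or more, with a median difference of -0.24 (-0.03 with values raised to background). Of the 12, 9 were above the brightness level. Of all named genes above it, 14.1% were lower and 16.0% higher. ADAM10 and ADAM17 encode the proteases known to release CXCL16 from the membrane. ADAM10 was at 12.42 in the resistant and 11.67 in the parental line, a difference of 0.75 that was under 2-fold. ADAM17 was at 12.37 in the resistant and 10.44 in the parental line, 3.81-fold higher. These sheddases were picked for their role in CXCL16 release after the values were seen.

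The collagenase gene MMP1 was at 4.50 in the resistant and 9.44 in the parental line, at least 20.7-fold lower. MMP14, a membrane-type metalloproteinase, was at 5.84 in the resistant and 10.42 in the parental line, 23.9-fold lower. MMP12, the macrophage elastase, was at 3.92 in the resistant and 6.84 in the parental line, at least 3.42-fold lower. ANPEP, which encodes aminopeptidase N (CD13), was at 8.35 in the resistant and 4.47 in the parental line, at least 9.56-fold higher. These genes were named for their large differences, so their directions do not describe the list. MMP1, MMP14 and MMP12 were above the brightness level on the parental array alone, and ANPEP on the resistant array alone. MMP7 was also lower, with a difference of -1.56. MMP3 and MMP9 were below background on both arrays, with differences of -0.41 and -0.07. MMP3, MMP7 and MMP9 were named after the values were seen.

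**Figure D4:**
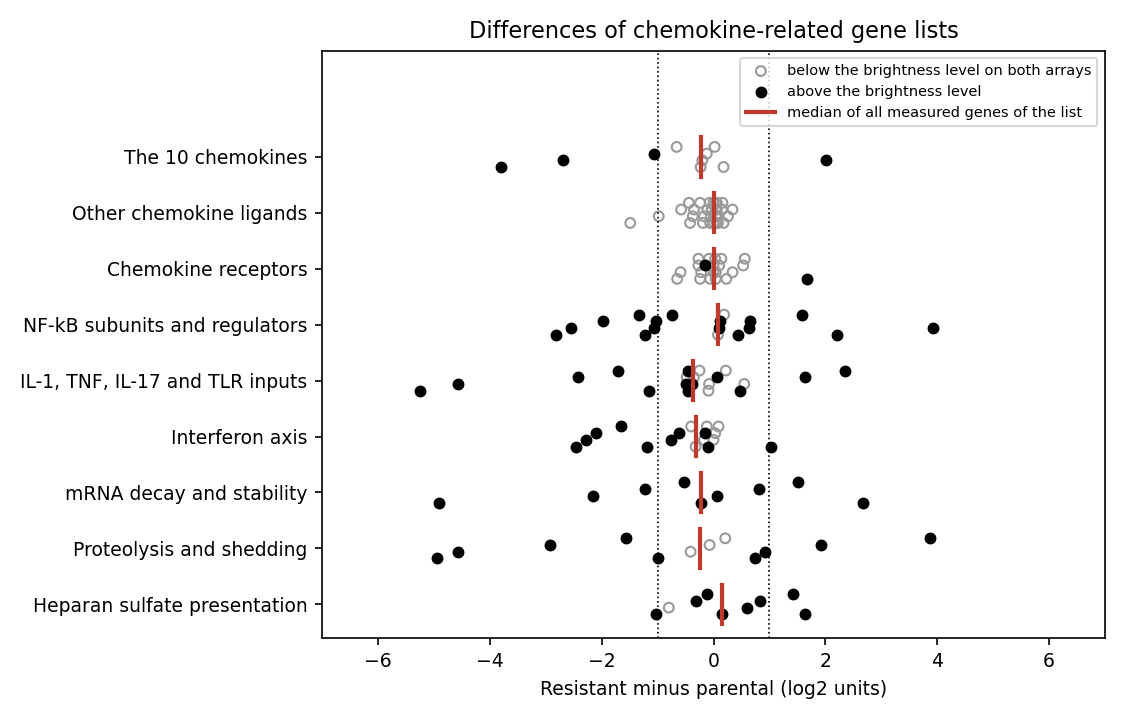
Differences, resistant minus parental in log2 units (horizontal axis), of all measured genes of the chemokine list and of 8 related lists (rows), with filled points for genes above the brightness level, open points for dimmer genes, red bars for list medians and dotted lines at 2-fold. The other chemokine ligands have a median of 0.00 and no filled point, and run between -1.49 (XCL1, below background on both arrays) and 0.34. The NF-kB list runs between -2.81 and 3.93 and the input list between -5.26 and 2.36.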

How the data were processed

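Total RNA of each culture was labelled with biotin and hybridised to an Affymetrix Human Transcriptome Array 2.0, per the labels' protocols. The authors deposited log2 expression for 67528 transcript clusters, made with Affymetrix Expression Console per the submitters' processing notes. Version, normalisation and build were not given in the sources used here. After sorting, the columns were apart by a median of 0.06 and a maximum of 0.28 log2 units, so their distributions had been matched almost fully before deposit, and a difference in total RNA would not show. No probe intensities, detection calls or scan batches were used here, and the number of arrays limits the precision.

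The platform annotation gave 1 symbol for 23781 clusters, several for 1543 and none for 42204. Gene identifiers gave the current RefSeq symbol (GRCh38.p14) for 21497 clusters. For 479 genes with several clusters the brightest was used. Gene order along chromosomes came from RefSeq. Besides all 10 chemokines, the genes named are up to 4 of each related list with the largest absolute difference above the brightness level, plus those said to be picked later. Where 1 array was at or below background, a fold is a bound taken from that level, and no fold is given where both were. The 10 chemokines and all lists were chosen with earlier results of these data known. Motifs were searched on both strands, and promoters were aligned globally with Biopython 1.88. Protein sequences were not used here. Differences were computed in Python 3.11.15, and the call rule was checked on simulated data. Alternatives were other scalings, averaged clusters per gene, other filters and thresholds, and values raised to background.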

Additional observations from a re-analysis of the deposited data

How the results depend on the processing

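Over centring, a loess correction, quantile normalisation, averaged clusters and values raised to background, CXCL8 differed by between -3.80 and -3.25, CXCL1 by between -2.69 and -1.92, CXCL2 by between -1.07 and -0.95 and CXCL16 by between 2.01 and 2.13. With values raised to background, CXCL8 was at -3.25 and CXCL1 at -1.92, and CXCL2 at -0.95 was under 2-fold. CXCL2 was also no longer counted after centring, loess or quantile normalisation, so that 2 chemokines were lower under these 4 alternatives. With a 4-fold threshold 2 chemokines were lower and 1 higher, and 611 named genes were higher and 431 lower. With a 1.5-fold threshold 2926 named genes were higher and 2774 lower. CXCL5, at 0.18, was at -0.03 with values raised to background, which reflects the background levels alone. In the heparan sulfate list the 1 lower gene was under 2-fold after centring, loess or quantile normalisation, and with averaged clusters NDST1 and, in the mRNA decay list, ZFP36L1 were under 2-fold. With values raised to background the median was -0.15 for the input list, -0.16 for the interferon list and -0.03 for the protease list. No paired analysis was possible because each group has 1 array. Signal limits the 5 chemokines at or below background on both arrays, for which a difference was not detectable.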

Other observations

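Chemokines are held at the cell surface by heparan sulfate, and 9 genes of its carriers and synthesis were measured, with a median difference of 0.16. Of these, 2 were higher and 1 lower by 2-fold or more. Of the 9, 8 were above the brightness level. Of all named genes above it, 14.1% were lower and 16.0% higher. EXT2, a polymerase subunit of heparan sulfate, was at 11.02 in the resistant and 9.38 in the parental line, 3.12-fold higher. NDST1, which sulfates the chain, was at 10.57 in the resistant and 9.15 in the parental line, 2.68-fold higher, but under 2-fold (0.47 log2 units) when averaged with a second, dim cluster of the gene. GPC1, a carrier protein gene, was at 7.04 in the resistant and 8.07 in the parental line, 2.04-fold lower, which was under 2-fold after centring, loess or quantile normalisation. SDC1, a carrier of the syndecan family, was at 9.98 in the resistant and 9.15 in the parental line, under 2-fold.

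On the flank of the CXCR2 ligand genes beyond CXCL2, EREG, which encodes the EGF receptor ligand epiregulin, was at 7.45 in the resistant and 12.06 in the parental line, a difference of -4.61. Between CXCL2 and EREG, MTHFD2L was at 5.61 in the resistant and 6.06 in the parental line, and EPGN, which encodes another EGF receptor ligand, was below background in both, at 4.14 in the resistant and 3.98 in the parental line. These neighbours were named after their values were seen.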
